A study of Homo sapiens with 30 samples.

Results

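The responses of 2 human cell lines to the same inhibitor of DNA methyltransferase 1 (DNMT1) were compared gene by gene, to find which changes were shared and which differed in size between the lines. All 12 wild-type libraries of the series were used, of 30 in all (4 of 10 groups), chosen by their labels. They are K562 with DNMT1i, K562 with DMSO, HCT116 with DNMT1i and HCT116 with DMSO, in 3 replicates each. K562 is a chronic myeloid leukemia line with erythroid features, grown in RPMI, and HCT116 is a colorectal carcinoma line, grown in McCoy's medium. Cells received the inhibitor (DNMT1i, 10 µM) or the solvent alone (0.1% DMSO) for 3 days, and poly(A)-selected RNA was sequenced. The replicates were separate cultures, and each tissue was represented by 1 line, so a difference between lines cannot be told apart from a difference in medium or in any other property of that line. The wider study asked how loss of DNA methylation acts on CTCF binding and gene activity, and its other libraries, from lines with tagged CTCF or tagged speckle proteins, were used only where stated.

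DNMT1 copies the methylation of CG dinucleotides onto the newly made strand at each replication, so that blocking it lets methylation be diluted as cells divide. Dense methylation of a promoter goes with silence of its gene. Germ line genes, the silent copies of imprinted genes and many genes silenced in tumours are held down in this way in somatic cells.

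The 12 libraries held 16606855 to 21228534 reads assigned to genes. In K562, 9 of 10 erythroid markers were at 1 CPM (counts per 1e6 assigned reads) or more with DMSO and the exception was HBE1, while 3 of 10 were in HCT116. In HCT116, 8 of 10 epithelial markers were at 1 CPM or more (CDH17 and VIL1 were below), against 4 of 10 in K562. The replicates of each group differed by more than sampling noise, and K562 DMSO replicate 3 stood apart from the others of its group. The poly(A) RNA came from whole cultures, in which fewer cells of one kind and less RNA per cell cannot be told apart.

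The transcript of the targeted enzyme changed little. DNMT1 (ENSG00000130816, 19:10133342-10231286, hg38) stood at 336, 327 and 421 CPM in the K562 DMSO libraries and at 313, 335 and 351 CPM with DNMT1i, and at 257, 269 and 248 CPM against 252, 268 and 250 CPM in HCT116. The groups overlapped in both lines, and the log2 fold changes were -0.12 ± 0.09 (SE) in K562 and -0.01 ± 0.09 in HCT116 (adjusted p = 0.475 and 0.951, edgeR's quasi-likelihood test with Benjamini-Hochberg adjustment, used for every adjusted p here). CTCF, the DNA-binding organiser of chromatin loops, was lower with the inhibitor in both lines, by -0.35 ± 0.08 in K562 and -0.54 ± 0.09 in HCT116 (adjusted p = 0.00839 and 2.72e-05), and these changes did not pass a test of their difference (0.18 ± 0.12, adjusted p = 0.279). The inhibitor acts on the protein, so these mRNA levels do not check the labels.

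Over 17237 genes tested in one fit, many more genes changed in HCT116 than in K562. A gene is called raised or lowered here where the adjusted p was below 0.05 and the log2 fold change lay beyond 0.5. In K562, 1077 genes (6.25%) were raised and 293 (1.70%) were lowered. In HCT116, 3923 genes (22.8%) were raised and 2557 (14.8%) were lowered. Raised genes made 60.5% of the HCT116 calls, but 66.2% with RLE scaling factors, 71.1% with DESeq2 (another test, over 20823 genes) and 72.3% when libraries were scaled by their sizes alone, a scaling that moved the median HCT116 response over all genes tested from 0.0187 to 0.138 on the log2 scale. The difference of responses (the K562 log2 fold change minus the HCT116 one) was tested directly, with no limit on its size. It was positive, that is higher in K562, in 2435 genes (14.1%) and negative in 2699 genes (15.7%). The balance moved with the scaling: the counts were 2018 and 3034 with RLE factors, 1866 and 3067 with library sizes alone and 1966 and 3275 with DESeq2.

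**Figure D1:**
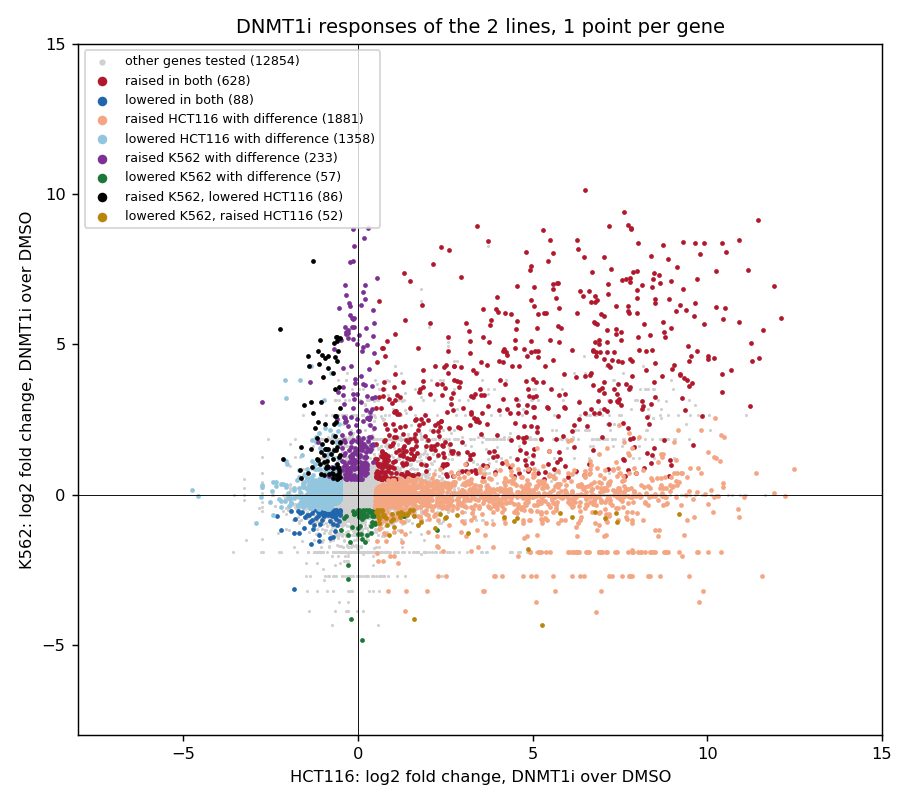
Log2 fold change with DNMT1i over DMSO in HCT116 (horizontal axis) and K562 (vertical axis), 1 point per gene tested (17237), coloured by class with the number of genes in the key. The 628 genes raised in both lines lie in the upper right, and the 1881 genes raised in HCT116 with a called difference form a horizontal band near 0 in K562.

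Of the genes raised in K562, 628 were also raised in HCT116. They were 58.3% of the K562 list and 16% of the HCT116 list, beside the 22.8% and 6.25% of all genes tested that were raised in HCT116 and K562. Of the genes lowered in K562, 88 were also lowered in HCT116 (30% of the K562 list and 3.44% of the HCT116 list). Of all genes tested, 14.8% were lowered in HCT116 and 1.70% in K562. Calls in opposite directions were fewer: 86 genes were raised in K562 and lowered in HCT116, and 52 were lowered in K562 and raised in HCT116. The remaining calls fell in a single line. Of these, 1881 genes raised in HCT116 and 233 raised in K562 also had a called difference in the same sense, as had 1358 lowered in HCT116 and 57 lowered in K562. Another 1362 genes raised in HCT116 and 130 raised in K562, and 1025 lowered in HCT116 and 96 lowered in K562, were called in a single line without a called difference, and are not counted as particular to it. Across all genes tested, the log2 responses of the lines had a Pearson r of 0.346, and r was 0.511 over the 11612 genes at 1 CPM or more in both lines. These values are across genes, which are not independent replicates.

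Germ line genes were among the strongest shared rises. Among shared rises with at least 10 counts in every group and no called difference, GCNA and TEX14 had the smallest p values. The first encodes a germ cell nuclear protein. GCNA (ENSG00000147174, X:71578437-71613583) stood at 1.11, 1.01 and 0.886 CPM in K562 with DMSO and at 156, 148 and 144 CPM with DNMT1i, and it went from 0.713, 0.745 and 0.680 CPM to 153, 157 and 162 CPM in HCT116. In both lines all 3 treated libraries lay over 100 CPM and all 3 controls near 1 CPM, and the log2 fold changes of 7.20 ± 0.12 and 7.77 ± 0.12 (adjusted p = 8.66e-19 and 2.21e-19) did not differ by the test (-0.58 ± 0.23, adjusted p = 0.138). TEX14, needed for the bridges between germ cells, rose from 0.554 ± 0.242 (SD, n = 3) to 16.2 ± 1.01 CPM in K562 and from 1.18 ± 0.202 to 26.7 ± 1.23 CPM in HCT116. STAG3, the meiotic cohesin subunit, rose from 1.89 ± 0.384 to 18.3 ± 1.25 CPM in K562 and from 0.478 ± 0.274 to 4.53 ± 0.723 CPM in HCT116, that is by 3.30 ± 0.18 and 3.23 ± 0.27 on the log2 scale (adjusted p = 7.49e-11 and 8.14e-09).

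Shared rises were not limited to the germ line. NES, the neural intermediate filament nestin, rose by 1.82 ± 0.11 in K562 and 1.99 ± 0.12 in HCT116 on the log2 scale, from a level of 10.3 to 17.4 CPM in the 6 DMSO libraries to 36.7 to 60.2 CPM in the 6 treated ones. ATF5, a stress-responsive transcription factor, rose by nearly the same amount in each line, 1.94 ± 0.12 in K562 and 1.93 ± 0.13 in HCT116, although its level with DMSO was 112 ± 19.2 CPM (SD, n = 3) in K562 and 35.0 ± 3.19 CPM in HCT116. BIN2, a membrane-shaping protein of blood cells, rose by 5.52 ± 0.20 in K562 and 4.54 ± 0.27 in HCT116, and DENND1C, an activator of Rab GTPases, by 3.67 ± 0.31 and 4.21 ± 0.28. The differences of these 4 genes had adjusted p values of 0.48, 1.0, 0.163 and 0.523. The lncRNA PPP1R3B-DT was also raised in both lines without a called difference, by 3.35 ± 0.23 and 3.36 ± 0.22.

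The promoters of 2 shared germ line genes are shown with those of genes raised in a single line, because the letters that methylation acts on can be read from them. The windows run from 250 bases before the start of the gene to 50 after it, on the strand of the gene, from RefSeq (GRCh38.p14), with each CG dinucleotide in capitals. They are GCNA (chrX:71578187-71578486, plus strand) and STAG3 (chr7:100177474-100177773, plus strand), raised in both lines, MAP3K13 (chr3:185282711-185283010, plus strand), raised in K562, and HDGFL3 (chr15:83207774-83208073, minus strand) and BST2 (chr19:17405581-17405880, minus strand), raised in HCT116. STAG3 has 2 windows in that table and the one listed first is printed.
GCNA: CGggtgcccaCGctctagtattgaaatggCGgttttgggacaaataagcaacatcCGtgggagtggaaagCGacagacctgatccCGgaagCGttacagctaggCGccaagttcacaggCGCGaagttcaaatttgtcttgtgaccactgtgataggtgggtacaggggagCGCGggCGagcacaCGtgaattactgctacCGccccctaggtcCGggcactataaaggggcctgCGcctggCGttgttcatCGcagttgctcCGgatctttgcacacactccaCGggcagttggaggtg
STAG3: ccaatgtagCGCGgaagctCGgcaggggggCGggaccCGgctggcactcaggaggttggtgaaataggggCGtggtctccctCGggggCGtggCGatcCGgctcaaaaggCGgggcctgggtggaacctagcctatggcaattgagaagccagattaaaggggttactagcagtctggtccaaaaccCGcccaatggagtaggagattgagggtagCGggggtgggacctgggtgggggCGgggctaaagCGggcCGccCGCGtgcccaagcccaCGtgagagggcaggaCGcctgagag
MAP3K13: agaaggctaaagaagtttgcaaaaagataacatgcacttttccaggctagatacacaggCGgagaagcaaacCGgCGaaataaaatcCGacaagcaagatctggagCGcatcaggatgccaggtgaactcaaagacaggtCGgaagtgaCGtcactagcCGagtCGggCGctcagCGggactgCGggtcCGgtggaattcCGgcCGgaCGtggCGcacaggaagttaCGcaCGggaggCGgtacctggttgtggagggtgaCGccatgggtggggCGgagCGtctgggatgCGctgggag
HDGFL3: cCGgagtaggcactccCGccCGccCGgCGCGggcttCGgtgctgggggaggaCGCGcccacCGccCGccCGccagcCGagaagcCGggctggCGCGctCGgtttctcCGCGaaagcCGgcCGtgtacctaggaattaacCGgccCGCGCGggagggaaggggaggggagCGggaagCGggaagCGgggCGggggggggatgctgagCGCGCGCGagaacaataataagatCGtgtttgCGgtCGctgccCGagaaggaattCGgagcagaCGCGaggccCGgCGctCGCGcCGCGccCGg
BST2: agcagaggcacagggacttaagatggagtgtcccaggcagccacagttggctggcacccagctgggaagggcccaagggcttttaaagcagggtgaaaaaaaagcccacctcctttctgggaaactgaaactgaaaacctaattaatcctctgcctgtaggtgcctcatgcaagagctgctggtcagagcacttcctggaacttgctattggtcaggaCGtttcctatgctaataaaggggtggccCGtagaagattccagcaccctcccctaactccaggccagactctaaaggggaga

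These windows hold 21 CG dinucleotides in GCNA, 20 in STAG3, 24 in MAP3K13, 47 in HDGFL3 and 2 in BST2. Over the 11943 tested genes with a promoter in the table the median was 26. It was 19 over 405 genes raised in both lines, 24 over 162 raised in K562 with a called difference and 25 over 1340 raised in HCT116 with one. A window with 15 or more CG was found in 64.2% of the genes raised in both lines and in 79.8% of all. The E-box CACGTG, which reads the same on both strands, is present in the GCNA and STAG3 windows. It was present in 9.92% of all windows, in 10.6% of those of genes raised in both lines, and in 11 of 48 (22.9%) of those of the germ line genes below that were raised in both lines. The E2F-type motif GGCGGGA, searched on both strands, was present in 25% of all windows and in 20.2% of those of genes raised in both lines. These counts describe letters in a window and carry no test.

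**Figure D2:**
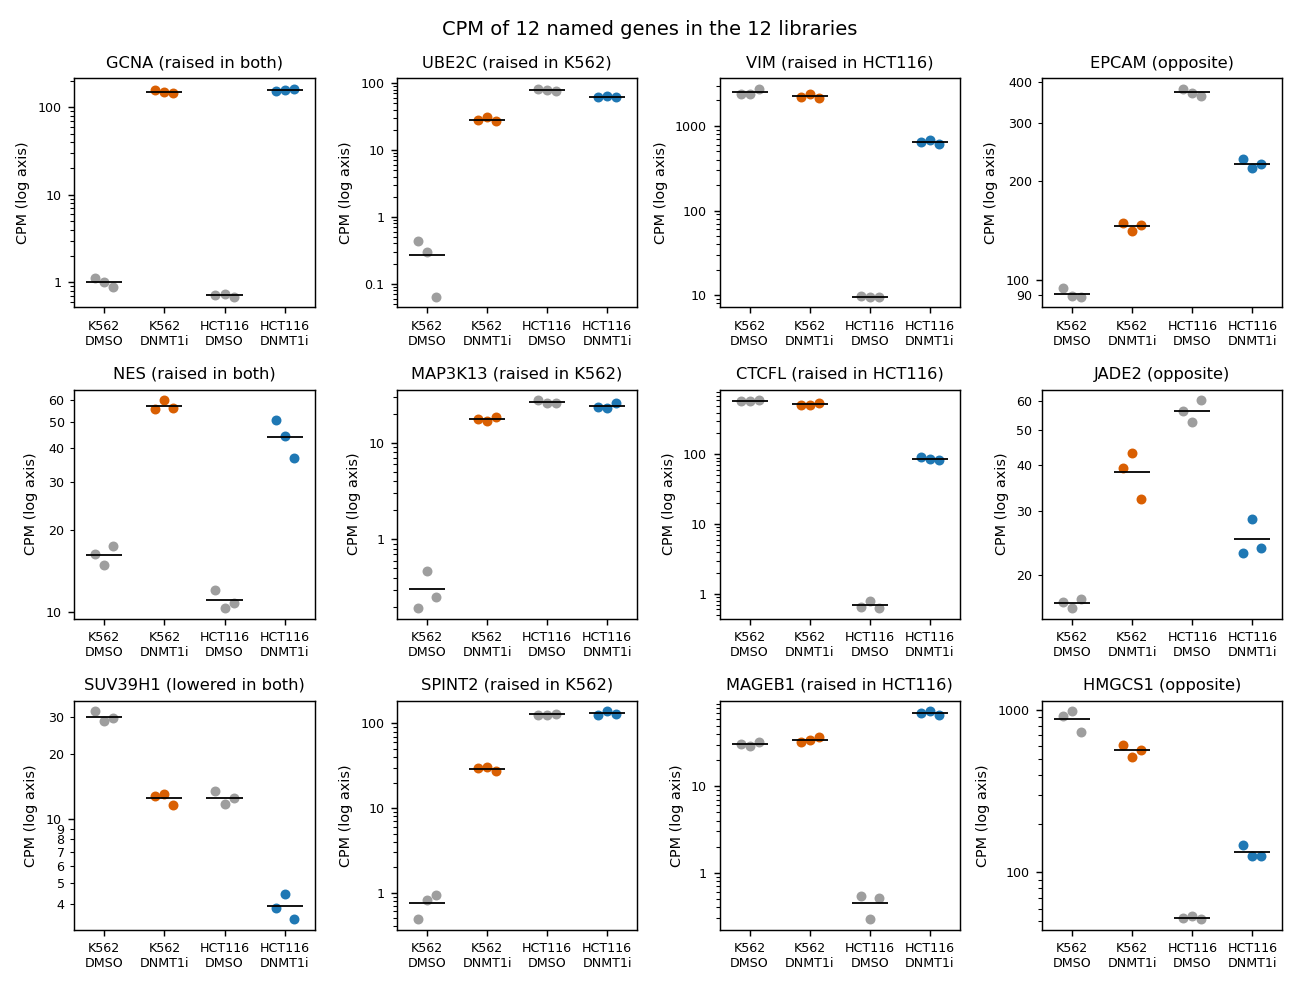
CPM of 12 named genes in each of the 12 libraries (log axes), with the mean of each group as a line. GCNA, NES and SUV39H1 moved the same way in both lines, UBE2C, MAP3K13 and SPINT2 rose in K562 to a level at or below that of HCT116, VIM, CTCFL and MAGEB1 rose in HCT116, and EPCAM, JADE2 and HMGCS1 moved in opposite directions.

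Germ line genes rose in both lines, in more members in HCT116, as was true of all genes tested. Of 192 listed genes (cancer-testis antigens, germ cell and piRNA pathway genes, and synaptonemal complex and meiosis genes), 137 were tested, 60 were raised in K562, 115 in HCT116 and 57 in both, beside 6.25% and 22.8% of all genes tested raised in K562 and HCT116. The response was lower in K562 in 55 and higher in 8, beside 15.7% and 14.1% of all genes tested. A gene silent with DMSO could be tested only if it appeared with DNMT1i, so these counts describe the genes that passed and not the lists. Among cancer-testis antigens, proteins of the testis that reappear in tumours, 48 of 77 were tested, and the response was lower in K562 in 30 and higher in none. They differed by their level in untreated K562. Of 13 genes at 10 CPM or more in K562 with DMSO, none was raised in K562, all 13 were raised in HCT116 and all 13 had a called difference. Of 31 genes below 1 CPM there, 18 were raised in K562 and 31 in HCT116, and 14 had a called difference. Many MAGE and GAGE copies are nearly identical, so reads may have been split among them.

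CTCFL, the testis paralogue of CTCF (ENSG00000124092, 20:57495966-57525652), was among the 13. It stood at 586, 583 and 605 CPM in K562 with DMSO and 515, 505 and 553 CPM with DNMT1i, and rose from 0.653, 0.803 and 0.624 to 91.6, 85.1 and 83.1 CPM in HCT116. Treated HCT116 remained below either K562 group. The difference was -7.12 ± 0.15 (adjusted p = 4.42e-17), made of 6.95 ± 0.13 in HCT116 and -0.17 ± 0.07 in K562 (adjusted p = 0.137). MAGEB1 stayed at 29.3 to 37.0 CPM in all 6 K562 libraries and rose from 0.444 ± 0.137 (SD, n = 3) to 71.2 ± 3.73 CPM in HCT116. MAGEA12 went from 0.137 ± 0.123 to 42.0 ± 2.47 CPM in HCT116 and stood at 37.8 ± 1.69 and 31.8 ± 3.07 CPM in K562. MAGEA1 had 2 counts in the 3 HCT116 DMSO libraries together and 34.6 ± 1.55 CPM with DNMT1i, beside 18.2 ± 1.51 and 16.6 ± 1.51 CPM in K562, so no fold is given.

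The other germ line lists held both patterns. LIN28B, a stem cell and germ cell RNA-binding protein, was at 136 ± 23.1 and 135 ± 1.09 CPM in K562 and rose from 0.463 ± 0.069 to 38.1 ± 4.26 CPM in HCT116 (difference -6.35 ± 0.24, adjusted p = 2.43e-13). TEX11, an X-linked meiosis gene, rose in both lines, by 1.85 ± 0.13 in K562 and 7.78 ± 0.19 in HCT116. MEIOC, which holds germ cells in meiotic prophase, reached 3.44 ± 0.154 CPM in K562 and 74.3 ± 8.77 CPM in HCT116, from 10 and 2 counts in the respective DMSO groups. SHOC1, a meiotic crossover factor, went the other way: it had no count in K562 with DMSO and 82 with DNMT1i, at least 25.6-fold higher against a floor of 3 counts over the group, while HCT116 stood at 1.33 ± 0.379 and 1.16 ± 0.283 CPM. GPAT2, a piRNA pathway acyltransferase, also responded more in K562, reaching 3.82 ± 0.28 CPM from 2 counts in the DMSO group, against 10.6 ± 0.946 and 16.2 ± 2.34 CPM in HCT116. SHOC1 and MEIOSIN were the meiosis genes with a higher response in K562, and MOV10L1, DPEP3, PLD6, TEX19, GPAT2 and ZP3 those of the germ cell list. These were named because the counts are small, after their values were seen, as is true of every gene named below to account for a small count.

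Imprinted genes, which are expressed from one parental copy, gave one of the largest shared rises. MEG3, the maternally expressed lncRNA of the DLK1 domain, went from 0.242, 0.710 and 0.190 CPM to 133, 97.9 and 129 CPM in K562, and from 0.178, 0.115 and 0.170 CPM to 69.5, 72.4 and 62.8 CPM in HCT116. The log2 fold changes of 8.30 ± 0.22 and 8.73 ± 0.25 rest on 20 and 8 counts in the DMSO groups, and their difference was not called (-0.43 ± 0.62, adjusted p = 0.661). H19, another maternally expressed lncRNA, rose in both lines but more in HCT116, by 3.56 ± 0.12 in K562 (from 9.97 ± 1.27 to 117 ± 5.83 CPM) and 6.99 ± 0.18 in HCT116 (from 0.445 ± 0.140 to 57.3 ± 6.69 CPM). Its difference was -3.44 ± 0.26 (adjusted p = 5.52e-09). MEST, a paternally expressed hydrolase, was called in K562 alone, going from 0.484, 0.0591 and 0.253 CPM to 20.5, 18.8 and 21.7 CPM, while HCT116 held 41.6 ± 0.519 CPM with DMSO and 56.1 ± 4.42 CPM with DNMT1i (difference 5.72 ± 0.27, adjusted p = 6.73e-12). DLK1, the paternally expressed neighbour of MEG3, stood at 628 ± 79.3 and 543 ± 42.4 CPM in K562 and rose from 1.16 ± 0.239 to 4.69 ± 0.372 CPM in HCT116. Of 57 listed imprinted genes, 41 were tested, 11 were raised in K562, 19 in HCT116 and 10 in both. Over all genes tested, 6.25% were raised in K562 and 22.8% in HCT116. The response was higher in K562 in 6, near the 14.1% of all genes tested, and lower in 14, beside 15.7%.

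Genes lowered in both lines moved by less. SUV39H1, a methyltransferase for lysine 9 of histone H3, fell from 31.8, 28.6 and 29.5 CPM to 12.7, 13 and 11.6 CPM in K562, and from 13.4, 11.7 and 12.5 CPM to 3.84, 4.46 and 3.39 CPM in HCT116. The treated and control libraries did not overlap in either line, and the log2 fold changes were -1.27 ± 0.11 and -1.68 ± 0.13 (difference 0.41 ± 0.17, adjusted p = 0.0717). STING1, the adaptor of cytosolic DNA sensing, fell from 29.2 ± 2.96 to 13.3 ± 0.303 CPM in K562 and from 13.3 ± 1.28 to 4.53 ± 0.559 CPM in HCT116. BRCC3, a deubiquitinating enzyme, was lowered by -0.70 ± 0.09 and -0.74 ± 0.09, and the little-studied C8orf33 by -0.65 ± 0.08 and -0.86 ± 0.08. Over the 88 genes the median log2 fold change was -0.63 in K562 and -0.85 in HCT116, and 65 fell further in HCT116. The 628 genes raised in both had medians of 2.94 and 4.37, and 410 rose further in HCT116, but the difference was called in 51 with the larger response in K562 and in 152 with the larger response in HCT116, and in 425 it was not called. Their median levels with DMSO were 0.165 CPM in K562 and 0.0963 CPM in HCT116. Counts were above 0 in every group for 452 of the 628, so the fold sizes of the others are uncertain.

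The rises particular to HCT116 included genes of several tissues. HDGFL3, a growth factor-like protein (ENSG00000166503, 15:83112738-83207823), stood at 82.1, 86.8 and 66.8 CPM in K562 with DMSO, at 76.5, 74.0 and 79.5 CPM with DNMT1i, and rose from 0.356, 0.172 and 0.0567 CPM to 49.2, 41.0 and 46.3 CPM in HCT116. K562 was higher than treated HCT116 in both of its groups, which overlapped. The HCT116 fold change was 7.83 ± 0.23 and the difference -7.87 ± 0.27 (adjusted p = 8.32e-14). VIM, the intermediate filament of mesenchymal and blood cells, rose from 9.74, 9.63 and 9.52 CPM to 654, 679 and 611 CPM in HCT116, and held 2510 ± 206 CPM (SD, n = 3) and 2230 ± 112 CPM in K562 (difference -6.24 ± 0.12, adjusted p = 2.43e-17). PTPN7, a phosphatase of blood cells, rose from 0.212 ± 0.119 to 20.2 ± 0.907 CPM in HCT116 beside 39.2 ± 3.92 and 31.6 ± 1.06 CPM in K562. The lncRNAs AFAP1-AS1 and LINC00958 had the same form, with 80.6 ± 8.23 and 108 ± 3.42 CPM in K562 with DMSO and rises of 7.22 ± 0.20 and 6.57 ± 0.15 in HCT116. AFAP1-AS1 overlaps a gene on the other strand, and reads of such pairs may not have been told apart. SPARC, a matrix glycoprotein, and COL6A3, a collagen chain, rose in HCT116 by 6.89 ± 0.15 and 6.49 ± 0.14 and were below 1 CPM in all 6 K562 libraries.

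The level in the other line was then counted over each class. Of the 1881 genes raised in HCT116 with a called difference, 739 (39.3%) were already at or above the treated HCT116 level in K562 with DMSO, beside 43.0% of all genes tested, so this share is not particular to the class. Their median level was 23 CPM in K562 with DMSO, against 0.695 CPM in HCT116 with DMSO and 5.05 CPM with DNMT1i. In libraries the grouping did not use, the DMSO cultures of a K562 line with tagged speckle proteins, 589 of the 739 were again at or above the treated HCT116 level, with a median of 20.5 CPM. Over all genes tested in that state it was 6396 of 7412, so this count is not particular to the class either. Another 489 (26.0%) were below 1 CPM in both K562 groups, beside 26.4% of all genes tested, and 653 (34.7%) lay between. Of the 233 genes raised in K562 with a called difference, 158 (67.8%) were already at or above the treated K562 level in HCT116 with DMSO, beside 45.9% of all genes tested, with a median of 20.3 CPM there, against 0.496 and 2.31 CPM in K562. In both HCT116 groups 21 (9.01%) were below 1 CPM, beside 14.8% of all, and 54 (23.2%) lay between. For the 489 and the 21 genes that are low in the other line, the test of the difference rests on few counts in that line. Such genes less readily gain a called difference, so these shares depend in part on how the classes were made. Without a called difference, 1051 of 1362 genes raised in HCT116 were below 1 CPM in both K562 groups. In the same way, 66 of 130 raised in K562 were below 1 CPM in both HCT116 groups, and 31 were already at the treated K562 level.

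**Figure D3:**
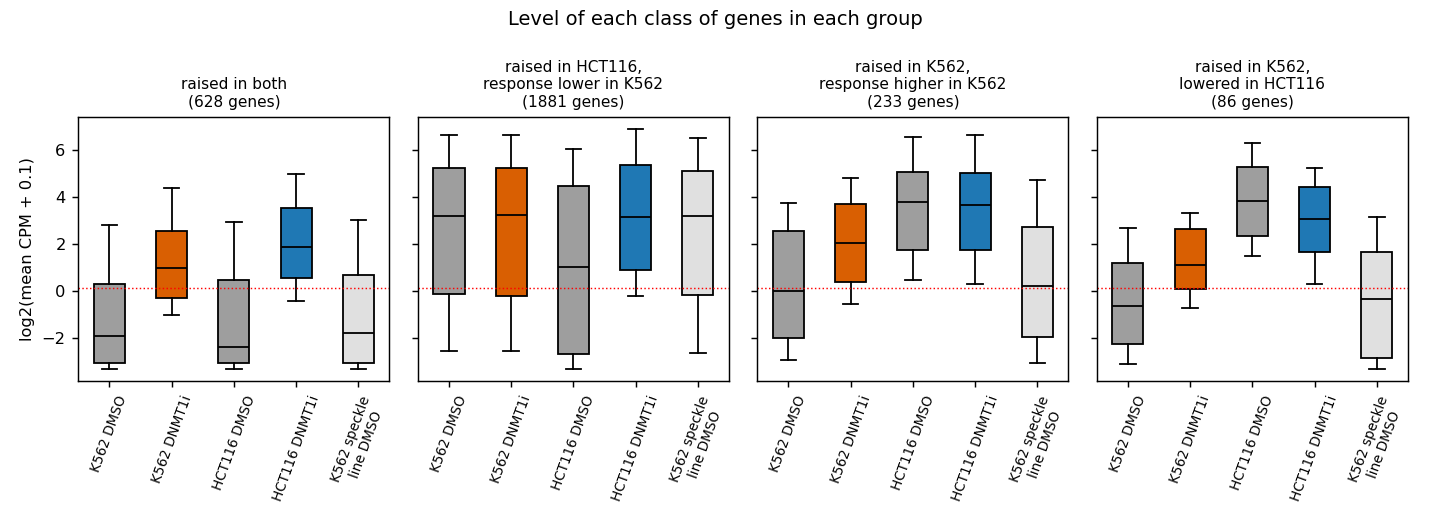
Log2 of the mean CPM plus 0.1 for the genes of 4 classes in the 4 wild-type groups and in the DMSO libraries of the tagged K562 line, with a red dotted line at 1 CPM. Boxes give quartiles and medians, and whiskers the 10th and 90th percentiles. Genes raised in K562 with a called difference had a median of 0.899 CPM with DMSO in K562 and 13.7 CPM in HCT116, and genes raised in both lines had medians of 0.165 and 0.0963 CPM.

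Genes were also grouped by their state before treatment, without the filter of the fit, and counted where they were raised and reached 1 CPM or more with DNMT1i. Of 42028 genes with a symbol, 28157 were below 1 CPM with DMSO in both lines. Of these, 230 (0.817%) met this in K562, 1015 (3.60%) in HCT116 and 166 in both. Of 2194 genes below 1 CPM with DMSO in K562 only, 136 (6.2%) met it in K562 and 484 (22.1%) in HCT116, where they were already on. Of 1083 genes below 1 CPM in HCT116 only, 330 (30.5%) met it in HCT116 and 96 (8.86%) in K562. Genes at 1 CPM or more in both lines numbered 10594, of which 281 (2.65%) met it in K562 and 1293 (12.2%) in HCT116. More genes met it in HCT116 than in K562 in each of these states. A gene too low to be tested counts as not raised here.

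Some genes that were below 1 CPM in the other line reached high levels in the line that responded. UCHL1, a neuronal deubiquitinase often methylated in colorectal tumours, went from 5 counts in the HCT116 DMSO group to 132, 137 and 134 CPM with DNMT1i and had 2 and 5 counts in the K562 groups. ZFP42, a pluripotency marker also known as REX1, went from 4 counts to 122, 113 and 116 CPM in HCT116 and had 5 and 7 counts in K562. SUSD2, a membrane protein, rose from 26.5 ± 1.78 to 430 ± 48.1 CPM in HCT116 and was at 0.292 to 0.570 CPM in the 6 K562 libraries. In the other direction, TRBC2, a constant segment of the T cell receptor, rose from 0.822, 0.651 and 0.886 CPM to 26.6, 25.4 and 27.9 CPM in K562, and had 0 and 2 counts in the HCT116 groups. SOX15, a SOX family transcription factor, went from 1 count to 7.91, 6.78 and 7.0 CPM in K562, and in HCT116 from 0.153 ± 0.0862 to 0.967 ± 0.0528 CPM. FCER1G, a signalling chain of Fc receptors, went from 0.167 ± 0.0424 to 4.99 ± 0.505 CPM in K562 and was at 0.0573 to 0.238 CPM in the 6 HCT116 libraries (difference 5.53 ± 0.73, adjusted p = 1.16e-05). For TRBC2 the difference could not be called (2.50 ± 6.76, adjusted p = 0.868). CHMP1B2P and RAB33A, on the X chromosome, reached 9.30 ± 1.23 and 5.02 ± 0.82 CPM in treated K562, with at most 0.658 CPM in any HCT116 library. The difference was called for RAB33A but not for CHMP1B2P (3.55 ± 2.54, adjusted p = 0.322).

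Among genes with at least 10 counts in every group, the rises particular to K562 were led by genes that HCT116 already expressed. That limit leaves out genes nearly silent in HCT116, so it favours this form. UBE2C, the E2 enzyme of the anaphase-promoting complex (ENSG00000175063, 20:45812576-45816957), stood at 0.435, 0.296 and 0.0633 CPM in K562 with DMSO and at 27.8, 30.7 and 27.1 CPM with DNMT1i. HCT116 held 82.0, 79.3 and 75.6 CPM with DMSO and 62.6, 63.5 and 62.4 CPM with DNMT1i. The difference was 6.96 ± 0.23 (adjusted p = 5.01e-14), made of 6.63 ± 0.20 in K562 and -0.33 ± 0.10 in HCT116. In the DMSO libraries of the tagged K562 line UBE2C was at 0.183 ± 0.184 CPM. MAP3K13, a kinase of the JNK pathway (ENSG00000073803, 3:185282941-185489094), rose from 0.307 ± 0.147 to 17.7 ± 0.912 CPM in K562 beside 26.7 ± 1.15 and 24.4 ± 1.63 CPM in HCT116. GPX1, a peroxidase that removes hydrogen peroxide, rose from 0.202 ± 0.065 to 10.2 ± 1.67 CPM in K562 beside 112 ± 10.1 and 100 ± 12.8 CPM in HCT116. SCRN1 rose from 3.02 ± 0.117 to 16 ± 0.609 CPM in K562, beside 228 ± 12.9 and 175 ± 6.67 CPM in HCT116. In each of these genes treated K562 remained below HCT116. MTSS1, an actin-binding protein, passed HCT116: it rose from 0.223 ± 0.0285 to 10.9 ± 0.794 CPM in K562, beside 5.63 ± 0.455 and 6.66 ± 0.531 CPM.

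Some epithelial genes were called in opposite directions in the lines, 6 of those tested. Of 52 listed colon and epithelial genes 37 were tested. In K562, 12 were raised and none was lowered, and in HCT116, 9 were raised and 13 were lowered. Among all genes tested, 6.25% were raised and 1.70% lowered in K562. In HCT116 22.8% were raised, a share the 9 are near, and 14.8% were lowered. The response was higher in K562 in 10 genes and lower in 3, MUC5AC and CDX1 among them, beside 14.1% and 15.7% of all genes tested. The median log2 response was 0.15 in K562 and -0.09 in HCT116, beside 0.00 and 0.02 over all genes tested. Of the 37 genes, 20 were below 1 CPM in both K562 groups. CDH1, the adhesion protein E-cadherin (ENSG00000039068, 16:68737292-68835537), rose from 0.290, 0.355 and 0.253 CPM to 6.82, 8.01 and 7.15 CPM in K562 and fell from 180, 184 and 160 CPM to 106, 114 and 114 CPM in HCT116, with no overlap of treated and control libraries in either line. The log2 fold changes were 4.58 ± 0.20 and -0.64 ± 0.08, and the difference 5.22 ± 0.22 (adjusted p = 1.05e-12). EPCAM, an epithelial adhesion molecule, rose from 94.4, 89.3 and 88.6 CPM to 149, 141 and 147 CPM in K562 and fell from 382, 372 and 364 CPM to 234, 219 and 225 CPM in HCT116 (difference 1.41 ± 0.10, adjusted p = 2.19e-09). CLDN7, TJP3, RAB25 and PRSS8 were the other listed genes called in opposite directions. SPINT2, an inhibitor of surface serine proteases, rose from 0.754 ± 0.242 to 29.2 ± 1.49 CPM in K562 and was at 127 ± 3.23 and 131 ± 8.04 CPM in HCT116. ESRP2, an epithelial splicing regulator, rose by 5.57 ± 0.34 in K562 from 6 counts, and was -0.38 ± 0.13 in HCT116. SPINT1 and MUC1 were the other genes raised in K562 with a called difference. Treated K562 stayed below HCT116 in CDH1, EPCAM, SPINT2 and ESRP2.

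**Figure D4:**
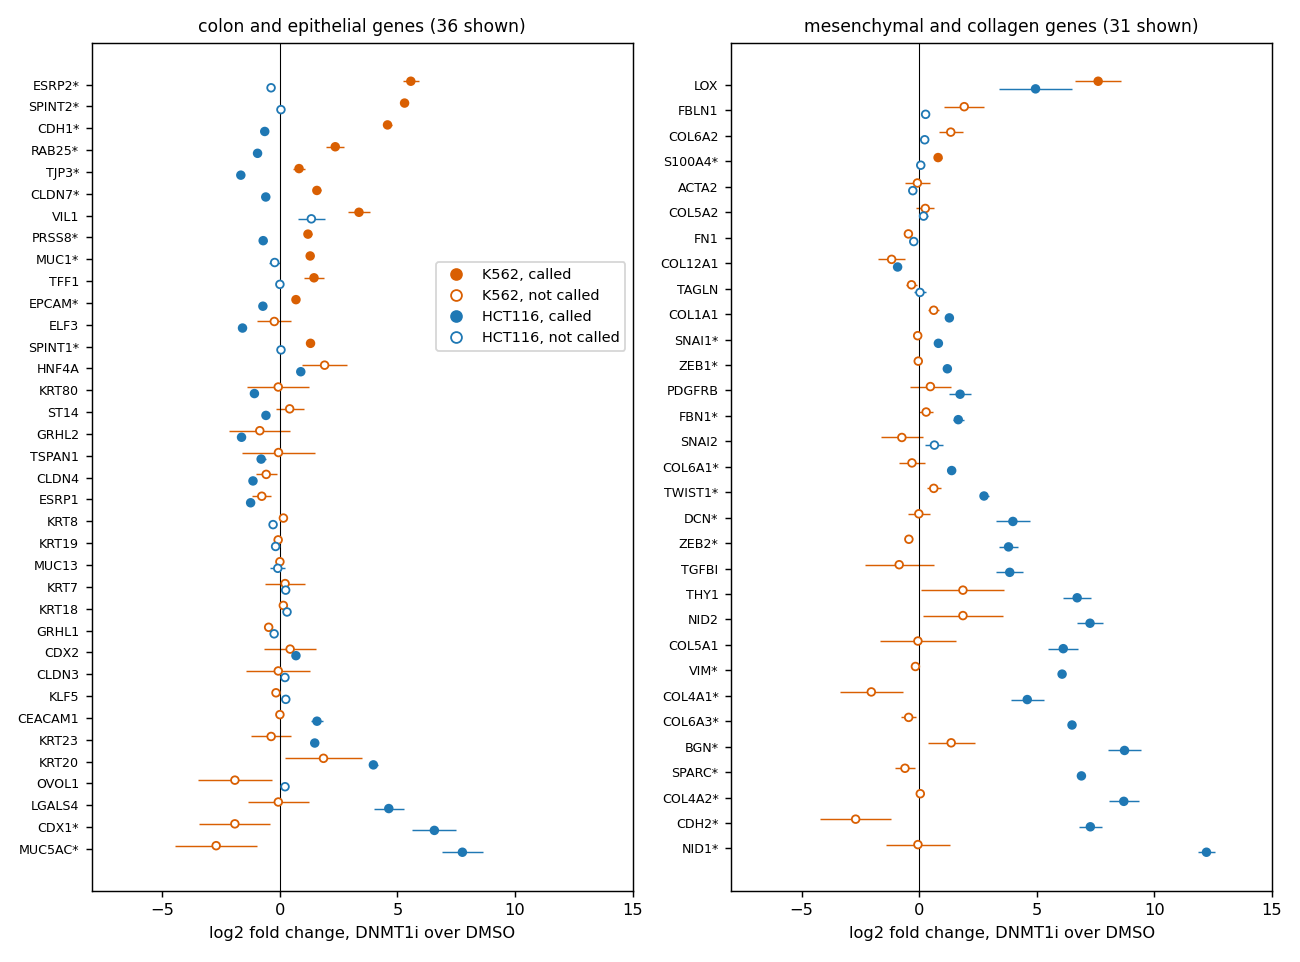
Log2 fold change with DNMT1i over DMSO in K562 (orange) and HCT116 (blue) for tested members of the epithelial list (not all are drawn) and for the 31 tested members of the mesenchymal list. Bars are standard errors, filled points are called responses, open points are not, and an asterisk marks a called difference. CDH1, EPCAM and 4 other epithelial genes are filled on both sides of 0, and 22 mesenchymal genes are filled to the right in HCT116.

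Mesenchymal and collagen genes rose mainly in HCT116. Of 41 listed genes, 31 were tested, and 22 were raised and 1 lowered (COL12A1) in HCT116, while LOX and S100A4 were raised in K562. Among all genes tested, 22.8% were raised and 14.8% lowered in HCT116. In K562 6.25% were raised, and the K562 count here is near that share. LOX, the collagen cross-linking enzyme, was raised in both lines. In 15 genes the response was lower in K562 and in 1 (S100A4) it was higher, beside 15.7% and 14.1% of all genes tested. The median log2 response was 2.75 in HCT116 and -0.06 in K562. The count of 15 fell to 5 when only genes at 1 CPM or more in both lines were tested, and 21 of the 31 genes were below 1 CPM in both K562 groups. VIM, SPARC and COL6A3 are described above. COL4A2, a basement membrane collagen, had no count in HCT116 with DMSO and 3.15, 2.65 and 2.63 CPM with DNMT1i, at least 48.7-fold higher against a floor of 3 counts over the group. K562 stood at 5.41 ± 0.251 and 5.57 ± 1.15 CPM. The fibroblast markers COL3A1, LUM and DCN stayed below 1 CPM in every group, and summed fibroblast markers were 9.21 to 11.6 CPM in HCT116 with DMSO and 21.7 to 29.5 CPM with DNMT1i. Their part in the result was not tested.

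Genes silenced by methylation in colorectal and other tumours, Wnt antagonists among them, followed the same sense. Of 50 listed genes 39 were tested, with 26 raised in HCT116, 6 raised in K562 (CHFR, CDKN1A, GATA5, AXIN2, HIC1 and THBD) and 5 in both. Among all genes tested, 22.8% were raised in HCT116 and 6.25% in K562. The response was lower in K562 in 16 and higher in 3, CDKN1A and MGMT among them, beside 15.7% and 14.1% of all genes tested. The 16 fell to 8 among genes at 1 CPM or more in both lines. CHFR, a mitotic checkpoint ubiquitin ligase, went from 4 counts to 6.82, 8.52 and 6.88 CPM in HCT116 and from 41.2 ± 4.21 to 65.1 ± 0.978 CPM in K562 (6.47 ± 0.31 and 0.66 ± 0.11, difference -5.81 ± 0.37, adjusted p = 5.42e-10). UNC5C, a netrin receptor, and FBLN2, a matrix protein, rose by 6.35 ± 0.42 and 8.39 ± 0.23 in HCT116 and were -0.55 ± 0.22 and 0.57 ± 0.48 in K562.

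Interferon-stimulated genes rose in HCT116 and mostly not in K562. Of 54 listed genes 48 were tested. In HCT116, 36 were raised and none was lowered, and in K562, 7 were raised and PARP9 and DTX3L were lowered. Over all genes tested, 22.8% were raised in HCT116 and 6.25% in K562. In 22 the response was lower in K562 and in 2 (LGALS3BP and IFITM3) it was higher, beside 15.7% and 14.1% of all genes tested. The medians were 1.41 in HCT116 and 0.02 in K562. The 22 fell to 15 when only genes at 1 CPM or more in both lines were tested. In K562, 23 of the 48 genes were below 1 CPM in both groups. BST2, the restriction factor tetherin (ENSG00000130303, 19:17402939-17405630), rose from 2.20, 1.83 and 1.70 CPM to 15.6, 15.5 and 14.8 CPM in HCT116 and stood at 41.7, 37.5 and 62.2 CPM with DMSO and 49.2, 52.8 and 47.8 CPM with DNMT1i in K562, where the groups overlapped. Its promoter, printed above, holds 2 CG dinucleotides. IFITM1, an inhibitor of virus entry, rose by 2.57 ± 0.23 in HCT116. In K562 it was at 363, 360 and 615 CPM with DMSO, the highest value being in replicate 3, and 341 to 348 CPM with DNMT1i. PARP12 rose by 1.42 ± 0.09 in HCT116 and was -0.02 ± 0.10 in K562. DTX3L, a ubiquitin ligase of the interferon response, moved in opposite directions, from 15.7 ± 1.59 to 9.42 ± 0.396 CPM in K562 and from 41.5 ± 3.59 to 62.4 ± 5.58 CPM in HCT116 (difference -1.33 ± 0.15, adjusted p = 1.62e-06).

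Genes upstream of interferon and of antigen presentation were also counted, beside the 22.8% and 6.25% of all genes tested raised in HCT116 and K562. Of 37 listed nucleic acid sensors and interferon signalling genes 26 were tested, with 11 raised and 2 lowered (TLR3 and STING1) in HCT116, and CGAS and IRF7 raised and STING1 lowered in K562. The response was lower in K562 in 8 and higher in none (in 1 without K562 DMSO replicate 3), beside 15.7% and 14.1% of all genes tested. IRF7, the regulator of type I interferon genes, rose in both lines, by 1.30 ± 0.20 in K562 and 3.20 ± 0.15 in HCT116, and DHX58, an RNA sensor, by 3.67 ± 0.39 in HCT116. Of 21 genes of MHC class I antigen presentation 20 were tested, and PSMB8 and HLA-G were raised in HCT116, PSMB8 was raised in K562 and ERAP2 was lowered there. PSME2, ERAP1, ERAP2 and PDIA3 had a lower response in K562, by differences of -0.38 to -1.44. These 4 are near the 15.7% of all genes tested, so nothing is read from their number. PSME2 lost its call in 6 of 20 alternatives.

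Genes of growth and division fell in HCT116 in most members and were rarely called in K562, and the differences were small. Of 79 cytosolic ribosomal protein genes, 59 were lowered in HCT116, beside 14.8% of all genes tested, and none was raised or lowered in K562. The response was higher in K562 in 70 of the 79 beside 14.1% of all genes tested, with a median of -0.58 in HCT116, -0.05 in K562 and 0.53 for the difference. Under the alternatives tried the 70 ranged from 59 to 72, except that a limit of 1 on the size of the log2 difference left 1. RPSA went from 867 ± 46.5 CPM with DMSO to 523 ± 35.4 CPM with DNMT1i in HCT116 and from 606 ± 13.7 to 672 ± 31.6 CPM in K562 (SD, n = 3), and treated libraries lay below controls in HCT116 and above them in K562 (difference 0.88 ± 0.10, adjusted p = 3.39e-06). RPS2 fell by 0.93 ± 0.09 on the log2 scale in HCT116 and was 0.04 ± 0.09 in K562. Many processed pseudogenes share reads with these genes.

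Cell cycle genes gave the same picture. Among all genes tested, 14.8% were lowered and 22.8% raised in HCT116, and 6.25% were raised in K562. The response was higher in K562 in 14.1% of all genes tested and lower in 15.7%. Of 29 G2/M and mitosis genes tested, 22 were lowered in HCT116 and UBE2C alone was raised in K562, and the response was higher in K562 in 21. CCNB2, a mitotic cyclin, fell from 119, 116 and 111 CPM to 52.7, 55.0 and 62.0 CPM in HCT116 and was at 192 ± 10.6 and 193 ± 6.91 CPM in K562 (difference 1.04 ± 0.11, adjusted p = 1.09e-06). AURKB and KIF2C fell by 1.11 ± 0.10 and 0.75 ± 0.07 in HCT116. Of 33 S phase and replication licensing genes, 19 were lowered and 2 raised (CCNE1 and SLBP) in HCT116, none was called in K562, and the response was higher in K562 in 16 and lower in the same CCNE1 and SLBP. Without K562 DMSO replicate 3 the 16 became 23. CDT1, which loads the MCM helicase, fell from 70.4 ± 7.93 to 24.6 ± 2.98 CPM in HCT116. In K562 its libraries were 113, 117 and 158 CPM with DMSO, replicate 3 being the highest, and 102, 137 and 109 CPM with DNMT1i. MCM7, ORC1 and RRM1 were lowered in HCT116 by -0.92, -0.85 and -0.69.

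Some genes that charge tRNA and answer amino acid shortage were lowered in HCT116, where 14.8% of all genes tested were. The response was higher in K562 in 14.1% of all genes tested and lower in 15.7%. Of 20 aminoacyl-tRNA synthetase genes, 7 were lowered in HCT116 and none was called in K562, and the response was higher in K562 in 15 (11 with library sizes alone). AARS1, the alanyl-tRNA synthetase, fell from 690, 675 and 660 CPM to 298, 342 and 350 CPM in HCT116 and stood at 1090 ± 113 and 1150 ± 88.2 CPM in K562 (difference 1.12 ± 0.12, adjusted p = 1.21e-06). Of 27 tested genes of the integrated stress response and serine synthesis, 15 were lowered and 3 raised (ALDH1L2, VLDLR and ATF5) in HCT116, STC2 and ATF5 were raised and SLC7A5 was lowered in K562, and the response was higher in K562 in 13 (9 with library sizes alone) and lower in ALDH1L2 and VLDLR. SLC3A2, the heavy chain of amino acid exchangers, fell from 385 ± 11.3 to 178 ± 22.0 CPM in HCT116 and was at 171 ± 12.9 and 173 ± 14.1 CPM in K562. STC2, a secreted glycoprotein, was called in opposite directions, 0.69 ± 0.15 in K562 and -1.06 ± 0.15 in HCT116. Of 23 tested snoRNA host genes, which carry small nucleolar RNAs in their introns, 14 were lowered in HCT116 and SNHG15 in K562, and the response was higher in K562 in 12. SNHG8 and GAS5 fell by 1.37 ± 0.10 and 1.05 ± 0.09 in HCT116.

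**Figure D5:**
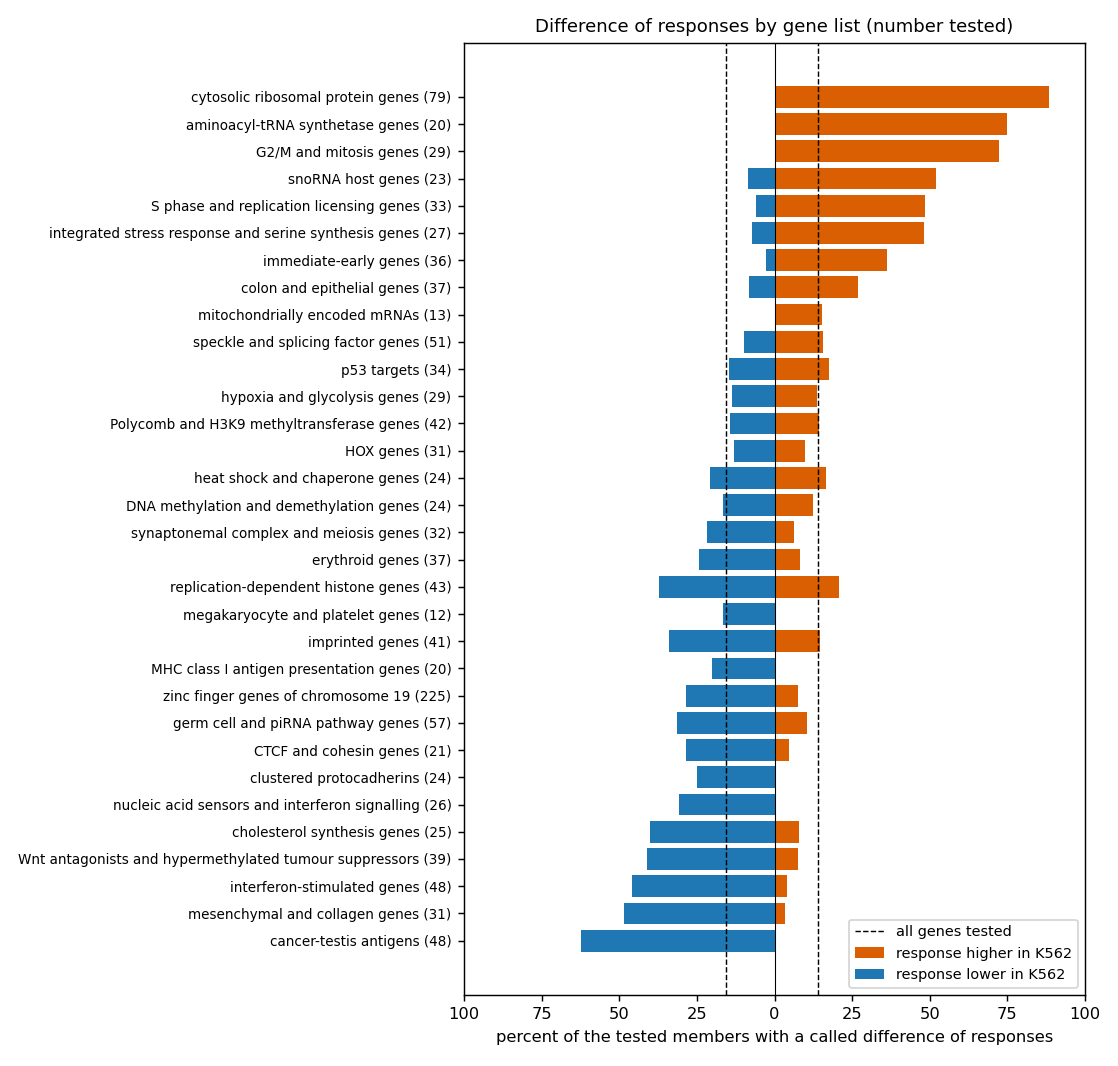
Share of the tested members of each gene list with a response called higher in K562 (orange) or lower in K562 (blue). Dashed lines give the shares over all 17237 genes tested, 14.1% and 15.7%, and ribosomal protein, aminoacyl-tRNA synthetase and G2/M genes have the longest bars to one side, with 70 of 79, 15 of 20 and 21 of 29 members.

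Cholesterol synthesis genes moved in opposite senses in some members. Of 25 genes, 3 were lowered in K562, HMGCS1 and INSIG1 among them, and none was raised, while 8 were raised and 4 were lowered in HCT116, TM7SF2, PMVK and DHCR7 among the latter. Over all genes tested, 1.70% were lowered in K562, and 22.8% were raised and 14.8% lowered in HCT116, so the 4 are near that last share. In 10 of the 25 the response was lower in K562 and in TM7SF2 and DHCR7 it was higher, beside 15.7% and 14.1%. HMGCS1, which makes the first committed intermediate of the mevalonate route, fell from 920, 983 and 730 CPM to 610, 516 and 563 CPM in K562 and rose from 52.8, 54.2 and 51.5 CPM to 147, 126 and 126 CPM in HCT116. Treated and control libraries did not overlap in either line, and K562 stayed above HCT116 throughout (-0.64 ± 0.10 and 1.33 ± 0.10, difference -1.97 ± 0.14, adjusted p = 3.85e-09). INSIG1, which retains the sterol sensor in the endoplasmic reticulum, went from 655 ± 78.2 to 460 ± 47.8 CPM in K562 and from 18.7 ± 2.20 to 52.3 ± 5.26 CPM in HCT116. FDFT1, squalene synthase, rose by 0.90 ± 0.08 in HCT116 and was -0.30 ± 0.07 in K562. FADS1, a fatty acid desaturase outside the list, fell in K562 by 1.0 ± 0.07 on the log2 scale, from 837, 830 and 913 CPM to 413, 432 and 447 CPM, and was 0.48 ± 0.07 in HCT116 (difference -1.48 ± 0.10, adjusted p = 1.64e-09).

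Other falls with a called difference were fewer in K562 than in HCT116 and of like median size. TFRC, the transferrin receptor, was lowered in K562 from 1290, 1230 and 1310 CPM to 769, 693 and 887 CPM, and was at 305 ± 15.5 and 364 ± 32.1 CPM in HCT116 (difference -0.96 ± 0.13, adjusted p = 1.2e-05). RB1, the retinoblastoma tumour suppressor, was lowered from 101, 104 and 74.5 CPM to 59.4, 59.5 and 66.5 CPM in K562, where DMSO replicate 3 lay nearest to the treated libraries, and was 0.43 ± 0.12 in HCT116. MYO6, a myosin motor, and HIVEP1, a zinc finger factor, were lowered in K562 by -0.91 ± 0.11 and -0.62 ± 0.10. In HCT116, TFPI, an inhibitor of the coagulation cascade, was lowered from 63.7, 68.9 and 58.1 CPM to 20.2, 15.3 and 17.9 CPM, beside 1410 ± 168 and 1570 ± 68.3 CPM in K562 (difference 2.0 ± 0.15, adjusted p = 3.88e-09). PLAU, urokinase, was lowered in HCT116 by -1.91 ± 0.10 from 151 ± 7.02 CPM, ARHGAP18, a GTPase regulator, by -1.31 ± 0.09, ETV1, an ETS transcription factor, by -1.19 ± 0.09, and MDK, the growth factor midkine, by -1.07 ± 0.09. The median log2 fold change was -0.75 over the 1358 genes lowered in HCT116 with a called difference and -0.72 over the 57 lowered in K562.

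Genes raised in K562 and lowered in HCT116 were mostly ones that HCT116 held higher. Of the 86 genes raised in K562 and lowered in HCT116, 75 were higher in HCT116 with DMSO than in K562 with DNMT1i. Among all genes tested the share in that state was 45.9%. A fall in HCT116 can be called only in genes expressed there, so the class favours this form. The 86 genes were 7.99% of the genes raised in K562, beside the 14.8% of all genes tested that were lowered in HCT116. JADE2, a subunit of a histone acetyltransferase complex, rose from 16.8, 16.2 and 17.2 CPM to 39.3, 43.1 and 32.2 CPM in K562 and fell from 56.4, 52.4 and 60.4 CPM to 23, 28.4 and 23.7 CPM in HCT116, so that K562 was the lower line with DMSO and the higher one with DNMT1i (difference 2.36 ± 0.16, adjusted p = 1.28e-09). TPM2, a tropomyosin, went from 2.18 ± 0.419 to 7.33 ± 0.111 CPM in K562 and from 205 ± 7.11 to 122 ± 13.2 CPM in HCT116, and IQANK1 from 1.45 ± 0.0935 to 4.23 ± 0.093 CPM and from 38.8 ± 3.10 to 15.4 ± 1.03 CPM. The 52 genes lowered in K562 and raised in HCT116 were 17.7% of the genes lowered in K562, beside 22.8% of all genes raised in HCT116. PTPRC, the leukocyte phosphatase CD45, went from 216 ± 15.5 to 137 ± 8.46 CPM in K562 and from 0.424 ± 0.0317 to 2.22 ± 0.86 CPM in HCT116 (difference -3.00 ± 0.32, adjusted p = 8e-07). HECW2, a ubiquitin ligase, went from 37.0 ± 3.59 to 23.2 ± 2.10 CPM in K562 and from 4.55 ± 0.575 to 12 ± 0.888 CPM in HCT116.

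Large gene families were counted in the same way. Over all genes tested, 6.25% were raised in K562 and 22.8% in HCT116, and 14.1% and 15.7% had a higher and lower response in K562. Of 225 tested zinc finger genes of chromosome 19, mostly transcriptional repressors, 46 were raised in K562, 110 in HCT116 and 36 in both, and the response was lower in K562 in 64 and higher in 17. ZNF542P, ZNF260 and ZNF813 rose in HCT116 by 8.36 ± 0.36, 7.03 ± 0.37 and 7.58 ± 0.43, and were 0.21 ± 0.12, 0.14 ± 0.14 and -0.03 ± 0.13 in K562. Of 53 listed clustered protocadherins, neuronal adhesion proteins, 24 were tested, 19 were raised in HCT116 and none in K562, where all 24 were below 1 CPM in both groups. These genes passed the filter on low counts through HCT116, so the counts describe the genes that passed and not the family. The response was lower in K562 in 6 of them, and in none of those at 1 CPM or more in both lines. PCDHGB5 had no count in HCT116 with DMSO and 2.56 ± 0.240 CPM with DNMT1i, at least 44.2-fold higher against the same floor, with 5 and 8 counts in the K562 groups. Protocadherin transcripts share exons, so reads may have been divided among them. Of 43 tested replication-dependent histone genes, 15 were raised in K562, 19 in HCT116 and 10 in both, and the response was lower in K562 in 16 and higher in 9. H1-2 and H4C8 rose in HCT116 by 3.36 ± 0.10 and 5.16 ± 0.23 and in K562 by 0.81 ± 0.08 and 0.70 ± 0.11. Most such mRNAs lack a poly(A) tail and their copies are alike, so these values are uncertain.

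In HOX, DNA methylation and Polycomb genes the called differences were about as frequent as the 14.1% (higher in K562) and 15.7% (lower) of all genes tested, so nothing is read from their number. Raised genes made 6.25% of all genes tested in K562 and 22.8% in HCT116, and lowered genes 1.70% and 14.8%. Of 31 tested HOX genes, 13 were raised and 7 lowered in HCT116, HOXC8, HOXB6, HOXC10 and HOXC6 were raised in K562 and 2 were lowered there, HOXC4 among them. The response was higher in K562 in HOXC10, HOXC6 and HOXB9 and lower in 4, among them HOXB2, HOXB3 and HOXD13 (9 with DESeq2). HOXC10 rose in both lines, by 3.77 ± 0.22 in K562 and 1.86 ± 0.17 in HCT116, and HOXB2 rose by 3.54 ± 0.19 in HCT116 and was 0.03 ± 0.09 in K562. Of 37 tested erythroid genes, HBQ1, HBZ, HBA2 and RHCE were raised and TFRC was lowered in K562. In HCT116 9 were raised, near the 22.8% of all genes tested. The response was lower in K562 in 9, among them TRIM58, a ubiquitin ligase of red cell maturation. It had no count in HCT116 with DMSO and 1.44 ± 0.254 CPM with DNMT1i (at least 24.9-fold higher), beside 8.05 ± 0.515 and 9.25 ± 0.542 CPM in K562. Of 24 tested genes of DNA methylation and demethylation, the response was higher in K562 in 3, HELLS and CDCA7L among them, and lower in DNMT3A, ZBTB33, USP7 and TET3. These 4 became 7 without K562 DMSO replicate 3 and 2 without K562 DMSO replicate 2. DNMT3A, a de novo methyltransferase, rose by 0.63 ± 0.12 in HCT116 and was -0.11 ± 0.12 in K562, and HELLS, a chromatin remodeller needed for methylation, fell by 0.82 ± 0.10 in HCT116 and was -0.02 ± 0.11 in K562. Of 21 CTCF and cohesin genes, the response was higher in K562 in PATZ1, which was called in opposite directions (0.54 ± 0.12 and -0.71 ± 0.10), and lower in 6, including CTCFL, ZFP42 and ZNF143. Of 42 Polycomb and H3K9 methyltransferase genes, 6 had a higher and 6 a lower response in K562, the latter 12 without K562 DMSO replicate 3. EZHIP, an inhibitor of EZH2, rose by 8.78 ± 0.29 in HCT116 and was 0.60 ± 0.94 in K562.

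Genes on X and on chromosome 19 took a larger part of the shared rises than of all genes tested. Genes on X made 9.39% of those raised in both lines and 3.88% of all genes tested, and genes on chromosome 19 made 13.2% and 6.90%. Of the 668 tested genes on X, 10.5% were raised in K562 and 32.5% in HCT116, and of the 1189 on chromosome 19, 11.8% and 27.4%. These were the highest shares of any chromosome in K562. In HCT116 the share on X was the highest, and those on chromosomes 21 (27.1%), 4 and 13 (26.5% each) were close to that on chromosome 19, while in K562 they were 6.08%, 5.31% and 4.01%.

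An earlier time was available in other libraries of an HCT116-derived line. HT-CTCF cells, in which both copies of CTCF carry a HaloTag, received DNMT1i or DMSO for 1 day, here without the degrader HaloPROTAC3, in 3 replicates each at a lower depth of 4243092 to 7271323 reads. Of 12643 genes tested in both fits, 170 (1.34%) were raised at 1 day. Among genes raised in both wild-type lines at 3 days, 35 of the 177 that could be tested (19.8%) were raised at 1 day. Among genes raised in HCT116 with a called difference it was 51 of 1010 (5.05%), and among those raised in K562 with a called difference 6 of 202 (2.97%). A gene near silent with DMSO passed the count filter at this depth mainly if it rose, so these shares depend on the filter. Genes raised in both lines had a median of 0.0963 CPM in wild-type HCT116 with DMSO. With no filter, 54 of all 628 were raised at 1 day. GCNA was raised by 3.00 (adjusted p = 1.66e-05) and H19 by 2.67 (adjusted p = 6.6e-06) on the log2 scale at 1 day. VIM, CTCFL and MAGEB1, raised in HCT116 alone at 3 days, were raised by 3.65, 7.46 and 7.12 (adjusted p = 1.7e-12, 3.09e-06 and 1.68e-05), while CDH1, EPCAM and HMGCS1 were 0.01, -0.01 and -0.07 (adjusted p = 0.981, 0.963 and 0.751).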

How the data were processed

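Poly(A) RNA-seq gene counts were analysed from 12 wild-type libraries (4 groups of 3 separate cultures), with 6 HT-CTCF and 3 tagged K562 libraries as further measures. Per the submitters' processing notes and the study's methods, the authors removed duplicates with UMI-tools 1.1.1, trimmed adapters with cutadapt 2.7, aligned reads to hg38 with STAR 2.6.0, counted them per gene with HTSeq and deposited raw counts. Whether counting used strand is not stated there. Their comparison tables (fold changes and p-values from DESeq2 1.28 in R 4.0.2) and 18 columns of per-sample values in them were not used. Reads not assigned to a gene (18.67% to 23.59%) were left out.

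Counts were fitted with edgeR 4.0.16 in R 4.3.3 (quasi-likelihood F test, TMM scaling, filterByExpr, Benjamini-Hochberg adjustment), with 1 coefficient per group over all 12 libraries. The 12 HT-CTCF libraries had a fit of their own. Responses were called where the adjusted p was under 0.05 and the log2 fold change exceeded 0.5 in size, and differences of responses by the adjusted p alone. CPM use TMM-scaled library sizes. SE was derived by dividing the estimated log2 change by the root of its F statistic. The fit was tested on simulated data. DESeq2 1.42.0, other scalings and filters, a replicate block and leaving out each library were alternatives.

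Gene positions come from GENCODE 44 (60463 of 60664 identifiers matched) and promoters from RefSeq GRCh38.p14 (11943 of 17237 tested genes matched by symbol, first listed window). Named genes had a symbol and, for most parts of the rule, at least 10 counts in every group. The rule took the 8 largest differences in each direction, the smallest p values of each class, up to 4 genes per list by p, and DNMT1, CTCF and MEG3. The genes, lists and tests were chosen with earlier results of these data known, and lists are described by counts and medians, with no list test. Some genes are not reported here.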

Additional observations from a re-analysis of the deposited data

Results flagged for a closer look

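The response to the inhibitor differed between the lines by the test of the difference in 2435 genes with the higher response in K562 and 2699 genes with the lower, and in 1866 and 3067 when libraries were scaled by their sizes alone. Calls in opposite directions were found in 86 genes raised in K562 and lowered in HCT116 and in 52 genes lowered in K562 and raised in HCT116. Among the genes named here, those with opposite calls and a called difference were CDH1 (log2 difference 5.22), DUSP2 (5.48), IQANK1 (2.87), TPM2 (2.51), FOSB (2.46), JADE2 (2.36), STC2 (1.75), EPCAM (1.41) and PATZ1 (1.25), raised in K562. Those lowered in K562 were PTPRC (-3.00), HECW2 (-2.07), INSIG1 (-1.99), HMGCS1 (-1.97) and DTX3L (-1.33). Of these, DUSP2 has the widest error, 0.74 (SE). With 3 libraries per group no test for single outlying libraries was made.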

How the results depend on the processing

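Of 171 named genes, 150 had a called difference, and none of these reversed under an alternative that could test it. Of the 150, 150 kept the call with DESeq2, with RLE or upper-quartile factors and with library sizes alone, 149 with no filter on low counts and with the replicate block, 148 to 150 when a library was left out, and 109 with a limit of 1 on the log2 difference. Most named genes were chosen from the main fit by large differences or small p values. Their calls were therefore likely to be kept, and these counts do not describe called genes in general. Raised and lowered genes numbered 1009 and 225 in K562 and 4623 and 1877 in HCT116 with DESeq2, and 785 and 197, and 3748 and 2481, when each line was fitted on its own. With DESeq2, 600 genes were raised in both lines, and 553 of them were among the 628. Among genes with a called difference, 1810 of 1881 raised and 988 of 1358 lowered in HCT116 kept their class with DESeq2. In K562 194 of 233 raised and 40 of 57 lowered did so. With library sizes alone, genes lowered in HCT116 with a called difference fell to 884. Testing only genes at 1 CPM or more in both lines, which removes genes silent in one line, left 656 raised in K562, 2048 raised and 1640 lowered in HCT116, 368 raised in both and 55 raised in K562 and lowered in HCT116. A limit of 1 on log2 values left 68 lowered in K562, 2600 raised and 664 lowered in HCT116, 680 and 1460 with a higher and lower response in K562, 10 lowered in both, 24 and 7 called in opposite directions, and 17 lowered in K562, 1171 raised in HCT116 and 241 lowered in HCT116 with a called difference. With no filter, 54 genes raised in both were raised at 1 day in HT-CTCF cells. When a library was left out, raised and lowered genes ranged from 928 to 1241 and 210 to 392 in K562 and from 3908 to 4237 and 2306 to 2626 in HCT116. Differences ranged from 2015 to 3079 and 2345 to 3262, genes raised and lowered in both from 547 to 674 and 60 to 97, and opposite calls from 69 to 89 and 34 to 77. Genes called in one line with a difference ranged from 194 to 315 and 42 to 96 in K562 and from 1741 to 1937 and 1187 to 1479 in HCT116, and genes raised at 1 day from 28 to 40 among those raised in both lines and from 115 to 224 in all. Leaving out 1 library moved 2 of these counts by over 1.5 times. Without K562 DMSO replicate 3, 96 genes were lowered in K562 with a called difference, and without K562 DNMT1i replicate 2, 34 were lowered in K562 and raised in HCT116. Among the gene lists, leaving out K562 DMSO replicate 3 moved 10 counts of differences by over 1.5 times and any other library 1 to 5, mostly counts of 5 or fewer. The cause was not tested. The replicate numbers did not pair the libraries: deviations of same-numbered libraries correlated by 0.213, -0.213 and -0.0552 in K562 and by 0.0735, -0.107 and -0.119 in HCT116. A replicate block gave 971 and 219 calls in K562, 3855 and 2495 in HCT116, and 2049 and 2318 differences. Genes with few counts in one line had wide errors there, and a difference could be missed at this depth.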

Other observations

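Several lists not described above had calls in both senses. Over all genes tested, the response was higher in K562 in 14.1% and lower in 15.7%. Of 36 immediate-early genes, first-wave targets of growth signals, the response was higher in K562 in 13 and lower in FOSL2. FOSB, an AP-1 subunit, rose from 2.22, 2.78 and 2.09 CPM to 5.77, 7.25 and 5.86 CPM in K562 and fell from 220, 288 and 215 CPM to 124, 113 and 112 CPM in HCT116 (difference 2.46 ± 0.21, adjusted p = 2.77e-08). NR4A1, an orphan nuclear receptor, was lowered in HCT116 by -0.98 ± 0.10 and was 0.29 ± 0.14 in K562, and IER3 was raised in K562 by 0.84 ± 0.12 and was -0.30 ± 0.10 in HCT116. PLK2, a polo-like kinase, rose from 0.273 ± 0.127 to 1.92 ± 0.415 CPM (SD, n = 3) in K562, beside 146 ± 17.9 and 187 ± 12.8 CPM in HCT116.

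Of 24 heat shock and chaperone genes, the response was higher in K562 in HSPA5, HSPB1, HSPA9 and HSPD1 and lower in HSF2, HSP90AA1, DNAJA1, HSPA8 and HSPA1A, the latter 5 becoming 9 without K562 DNMT1i replicate 3. These counts stand beside 14.1% and 15.7% of all genes tested. HSPA1A, an inducible chaperone with a nearly identical neighbour, rose from 0.713, 0.688 and 0.340 CPM to 26.2, 26.1 and 24.0 CPM in HCT116, and in K562 went from 121, 78.7 and 142 CPM to 155, 113 and 417 CPM, groups that overlapped and in which treated replicate 3 was the highest. Of 29 tested hypoxia and glycolysis genes, 4 had a higher response in K562 (PKM, GPI, ENO2 and PFKL) and 4 a lower one (SLC2A3, PFKP, NDRG1 and SLC2A1), shares near the 14.1% and 15.7% of all genes tested. Without K562 DMSO replicate 3 they became 8 and 2, the higher count became 7 without HCT116 DNMT1i replicate 2 and 2 without HCT116 DMSO replicate 3, and the lower count 2 without K562 DNMT1i replicate 3. SLC2A1 and SLC2A3, glucose transporters, rose by 1.57 ± 0.11 and 2.13 ± 0.11 in HCT116 and were 0.11 ± 0.11 and -0.03 ± 0.09 in K562, while GPI, a glycolytic isomerase, was lowered in HCT116 by -1.30 ± 0.14. Of 13 mitochondrially encoded mRNAs, 8 were lowered in HCT116 and none in K562, and MT-CO1 and MT-CO3 had a higher response in K562, which became 8 of 13 with no filter on low counts or without K562 DMSO replicate 3 and 4 without HCT116 DNMT1i replicate 1. Of 51 tested speckle and splicing factor genes, 8 had a higher response in K562 (5 without any one of 4 libraries: K562 DMSO replicate 1, HCT116 DNMT1i replicate 1 or 3, or HCT116 DMSO replicate 1) and 5 a lower one (SRPK2, SRSF12, SRSF2, CLK3 and NEAT1), and the 5 became 11 with library sizes alone. The 8 are near the 14.1% of all genes tested and the 5 are below the 15.7%, so nothing is read from their number. Of 12 tested megakaryocyte and platelet genes, TBXA2R and CD9 had a lower response in K562, near the 15.7% of all genes tested. Both were raised in HCT116.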
